A study of Mus musculus with 36 samples.

Results

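Clec7a, Itgax, Cst7, Lpl, Spp1, Gpnmb, Lgals3 and Lyz2 are genes of the disease-associated microglia signature, and they were followed here across mouse hippocampus at 2 ages and in RNA pulled down from labelled microglia. The genes were chosen by name, with earlier results of these data known. Each matched 1 entry by its symbol, 8 of the 36172 gene entries of the deposited table, and all 8 passed the filter on low counts in each comparison. Microglia are the resident macrophages of the brain. In their homeostatic state they express receptors such as Cx3cr1, P2ry12 and Tmem119. Near amyloid, dying cells and damaged myelin, some microglia take on the disease-associated state, in which genes for pattern and lipid receptors, lipid uptake and lysosomal degradation are raised, partly through the receptor Trem2. Similar cells have been described in aged white matter.

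Every mouse was of the Cx3cr1-NuTRAP genotype, so all groups carry the same transgenes and no group lacks them. In these mice a tamoxifen-inducible cre under the promoter of Cx3cr1 switches on a fluorescent tag on ribosomes, and an antibody to the tag then pulls down ribosome-bound RNA. This is TRAP, the affinity purification of translating ribosomes. Cx3cr1 is also active in border macrophages of the brain. Whole-tissue polyA RNA saved before the pulldown is called input. Inputs came from 10 young mice aged 6 months and induced early (5 females, 5 males), 12 old mice aged 22 months and induced early (7 females, 5 males), and 7 old mice aged 22 months and induced late (5 females, 2 males). TRAP was done on the 7 late-induced mice that also gave inputs. Ages at induction are not given in the sources used here. Library totals ran from 12.9 to 20.4 M estimated counts. Levels are given as CPM, counts scaled to a common library total, and differences as log2 fold changes from edgeR's quasi-likelihood test with Benjamini-Hochberg adjustment over all genes tested. A gene is called at an adjusted p under 0.05.

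The TRAP libraries held the defining markers of the labelled cells. All 16 homeostatic microglia genes of a list were called higher in TRAP than in input, and so were 10 of 10 pan-myeloid genes. The 9 border macrophage genes were also all higher, with a median log2 fold change of 3.81, against 4.25 for the homeostatic list. Endothelial genes were higher too, 6 of 6 with a median of 1.18. All 10 oligodendrocyte genes were lower (median -1.33). The 10 monocyte and neutrophil genes summed to 2.83 to 4.88 CPM in the TRAP libraries, with Camp at 0 in each, and both of those that passed the filter were called higher in TRAP, Ccr2 (2.04) and Ly6c2 (0.97). Library position in the sample sheet followed the groups (indexes 1 to 23 old early-induced, 25 to 38 old late-induced, 39 to 57 young), so position and group cannot be told apart.

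The regions before the start of the 4 members with the largest age differences are shown. RNA of each was higher in both old groups than in young inputs, and shared regulation was not tested. Each is 250 bases long and ends just before a RefSeq transcript start, from which motif distances are counted, read 5′ to 3′ on the gene's strand from RefSeq promoters of build GRCm38.p6, the assembly also named mm10. Capitals mark matches to 3 motifs searched on both strands, none of which overlapped another match. These were GAGGAA, the core bound by the myeloid ETS factor PU.1, TGANTCA, the site of AP-1 factors, and CACGTG, the E-box of the MiT family.
Clec7a (chr6:129472780-129473029, minus strand): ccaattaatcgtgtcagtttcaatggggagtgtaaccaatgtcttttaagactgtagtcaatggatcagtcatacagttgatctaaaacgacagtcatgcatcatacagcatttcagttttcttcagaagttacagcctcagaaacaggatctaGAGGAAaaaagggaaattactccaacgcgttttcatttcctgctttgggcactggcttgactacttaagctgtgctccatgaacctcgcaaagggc
Cst7 (chr2:150570165-150570414, plus strand): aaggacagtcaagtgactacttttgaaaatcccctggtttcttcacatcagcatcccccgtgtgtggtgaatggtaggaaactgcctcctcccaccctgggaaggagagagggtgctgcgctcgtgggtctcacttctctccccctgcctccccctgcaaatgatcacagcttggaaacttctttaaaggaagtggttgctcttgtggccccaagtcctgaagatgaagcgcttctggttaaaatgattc
Itgax (chr7:128129300-128129549, plus strand): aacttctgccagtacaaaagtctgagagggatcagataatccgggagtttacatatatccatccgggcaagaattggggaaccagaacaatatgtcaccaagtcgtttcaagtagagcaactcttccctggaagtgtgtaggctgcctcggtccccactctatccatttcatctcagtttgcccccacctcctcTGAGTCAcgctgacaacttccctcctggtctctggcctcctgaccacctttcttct
Lyz2 (chr10:117282273-117282522, minus strand): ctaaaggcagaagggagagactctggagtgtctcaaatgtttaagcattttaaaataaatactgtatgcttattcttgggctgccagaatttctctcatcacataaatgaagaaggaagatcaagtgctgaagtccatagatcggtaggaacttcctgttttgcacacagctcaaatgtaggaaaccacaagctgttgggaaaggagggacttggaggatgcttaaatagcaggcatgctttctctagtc
The start used lies at the first base of the gene as given below for Cst7 and Lyz2, 2 bases before it for Clec7a and 18 bases before it for Itgax. GAGGAA stood 96 bases before the start of Clec7a, and in Itgax the AP-1 match TGAGTCA stood 56 bases before the start. Cst7 and Lyz2 held none of the motifs in this window. Promoters of 7 of the 8 members were matched, as 9 windows. GAGGAA was found in 3 windows, of Clec7a (both of its windows) and Spp1 (113 bases before the start). The 2 Clec7a windows overlap and hold the same site, which is counted in both. TGANTCA was found for Itgax, and CACGTG in 0 of the 9 windows. Of all 32851 promoter windows of this length, 23.3% held GAGGAA, 6.75% TGANTCA and 6.02% CACGTG.

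In inputs, 7 of the 8 genes rose with age in both old groups and Lpl did not. Among the 14948 genes tested, 13% were called higher in old early-induced than in young mice and 17% in old late-induced than in young mice. The median log2 fold change of the 8 genes was 1.58 in early-induced and 2.10 in late-induced mice, against a median of 0.01 over all genes in both. Both comparisons use the same 10 young inputs. In these, Clec7a, Itgax and Cst7 reached at most 8, 6 and 6 counts, under the filter's minimum count of 10. These 3 genes passed the filter through the old inputs, where they are higher, and their passing it is no support for the rise. In these whole-tissue libraries, more cells of a type and more RNA per cell cannot be told apart. The labels do not say whether animals shared litters, and the p-values describe the spread between these animals.

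**Figure D1:**
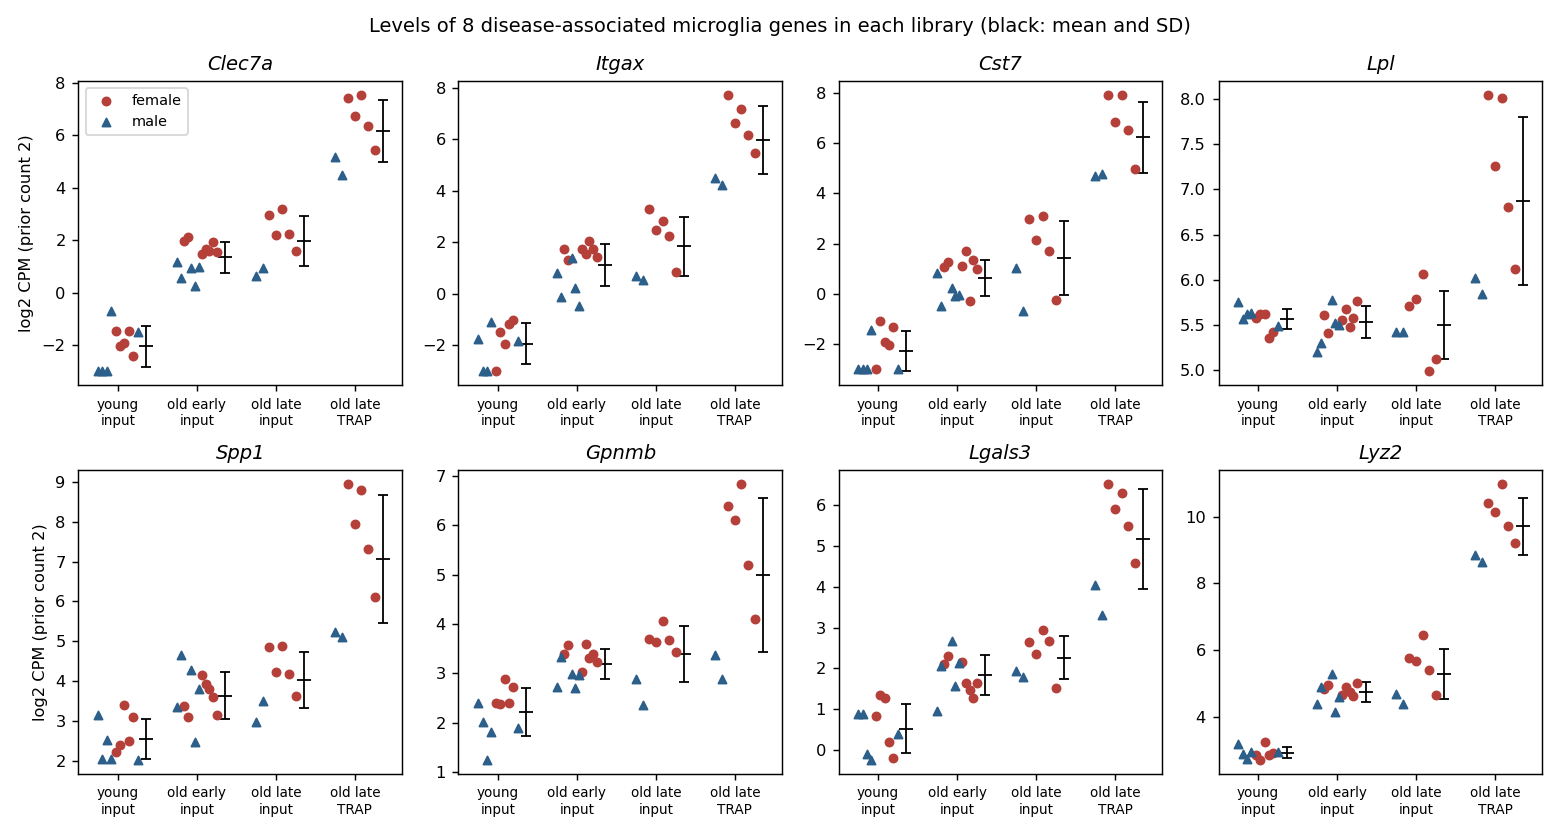
Level of each gene in each of the 36 libraries, as log2 CPM with a prior count of 2, by group on the horizontal axis. Red circles are females, blue triangles males, and black bars the mean and SD of a group. Clec7a, Itgax, Cst7 and Lyz2 show no overlap between young and old inputs, and Lpl is level across the inputs. The group mean of all 8 genes is highest in TRAP, and single TRAP libraries of Gpnmb and Lpl lie within the range of the inputs.

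Clec7a (identifier 56644, chromosome 6, 129461591 to 129472777, minus strand, build mm10) encodes Dectin-1, a C-type lectin receptor for fungal glucans that signals through Syk. In young inputs it ranged from 0 to 0.482 CPM with a median of 0.128, and 3 of the 10 libraries held no count. The 10 young libraries together held 24 counts, or 0.150 per M of library total, with an exact 95% Poisson interval of 0.0962 to 0.223, which covers counting error only. Its old early-induced inputs ranged from 1.05 to 4.18 CPM (median 2.73), and the old late-induced ones from 1.42 to 9.05 CPM (median 4.40). Every old library lay above every young one. The log2 fold change was 3.96 ± 0.36 (SE, edgeR adjusted p 3.93e-09) in early-induced and 4.57 ± 0.37 (SE, edgeR adjusted p 3.03e-10) in late-induced mice.

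Itgax (identifier 16411, chromosome 7, 128129568 to 128150657, plus strand) encodes the integrin CD11c, which is also a marker of dendritic cells. Young inputs ranged from 0 to 0.375 CPM (median 0.163), with 3 libraries at 0 and 28 counts in all, or 0.175 per M (exact 95% Poisson interval 0.116 to 0.253). The range was 0.598 to 4.07 CPM (median 2.52) in old early-induced and 1.31 to 9.82 CPM (median 4.57) in old late-induced inputs. No old library overlapped the young range. The margin was small, with 8 counts in the lowest old early-induced library and 6 in the highest young one. On the log2 scale Itgax rose by 3.58 ± 0.39 in early-induced (SE, edgeR adjusted p 1.07e-07) and 4.30 ± 0.41 in late-induced mice (SE, edgeR adjusted p 6.34e-09). A list of 10 dendritic cell and lymphocyte genes summed to 12.5 to 17.5 CPM in young, 12.4 to 17.6 in old early-induced and 13.2 to 17.1 in old late-induced inputs. Of its 3 genes that passed the filter, 1 was called higher in each old group. Log2 fold changes of the 3 ran from -0.14 to 1.66 in early-induced and from -0.25 to 1.94 in late-induced mice. The mean log2 CPM of the list averaged -1.34 over young, -1.03 over early-induced and -0.98 over late-induced old inputs. Trbc2 of that list was at 0 in all inputs, and the part of these cells in the rise of Itgax was not tested.

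Gpnmb (identifier 93695, chromosome 6, 49036518 to 49058182, plus strand) encodes a transmembrane glycoprotein of lysosomes and phagosomes. It was well above the floor in young inputs, from 2.25 to 7.25 CPM (median 5.12). Old early-induced inputs ranged from 6.42 to 12.0 CPM (median 9.56) and old late-induced ones from 5.04 to 16.5 CPM (median 12.4). In the early-induced group 10 of 12 old libraries lay above every young one, and in the late-induced group 6 of 7 did. Its log2 fold changes were 0.92 ± 0.12 (SE, edgeR adjusted p 2.59e-06) and 1.07 ± 0.14 (SE, edgeR adjusted p 1.13e-06), the smallest of the 7 that were called.

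Cst7 (identifier 13011, chromosome 2, 150570415 to 150578944, plus strand) encodes cystatin F, an inhibitor of cysteine cathepsins in the endosomal and lysosomal pathway. Of the 10 young inputs, 5 held no count, and the others reached at most 0.352 CPM. The 10 libraries held 18 counts, or 0.113 per M (exact 95% Poisson interval 0.0668 to 0.178). Old early-induced inputs ranged from 0.597 to 3.14 CPM (median 1.73) and old late-induced inputs from 0.500 to 8.46 CPM (median 3.15). Neither overlapped the young inputs. The margin was small, with 8 counts in the lowest old late-induced library and 6 in the highest young one. The rise was 3.71 ± 0.51 (SE, edgeR adjusted p 3.57e-06) and 4.71 ± 0.51 (SE, edgeR adjusted p 6.13e-08) on the log2 scale.

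Lyz2 (identifier 17105, chromosome 10, 117277541 to 117282272, minus strand) encodes lysozyme M, a secreted and lysosomal enzyme that cleaves bacterial cell walls. Its young inputs lay close together, from 6.39 to 9.28 CPM (median 7.37). Old early-induced inputs ranged from 17.6 to 38.6 CPM (median 27.4) and old late-induced inputs from 20.7 to 88.0 CPM (median 42.5). All old libraries were above all young ones. The log2 fold changes were 1.83 ± 0.18 (SE, edgeR adjusted p 1.39e-08) and 2.45 ± 0.20 (SE, edgeR adjusted p 3.03e-10). Lyz1, the neighbouring lysozyme gene and a close paralog, moved in parallel, with means of 0.614 ± 0.287 CPM (young, SD, n = 10), 2.37 ± 0.662 CPM (early-induced, SD, n = 12) and 3.58 ± 2.44 CPM (late-induced, SD, n = 7). Estimated counts of Lyz2 were mostly not whole (157.936 in young replicate 1), and those of Lyz1 were mostly whole (12 in the same library). Whether reads shared by the 2 genes were divided between them was not tested.

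Lpl (identifier 16956, chromosome 8, 68880555 to 68906932, plus strand) encodes lipoprotein lipase, which releases fatty acids from lipoproteins and is also expressed by hippocampal neurons. Young inputs ranged from 41 to 53.9 CPM (median 48.5). Old early-induced inputs ranged from 36.7 to 54.6 CPM (median 46.5) and old late-induced inputs from 31.7 to 66.8 CPM (median 42.8). The 3 groups overlapped throughout. Inputs hold RNA of all cells, and TRAP was done in late-induced old mice only. An age difference of Lpl within microglia can therefore not be read from these values. The log2 fold changes of -0.03 (95% interval -0.21 to 0.14, edgeR adjusted p 0.822) and -0.04 (95% interval -0.24 to 0.17, edgeR adjusted p 0.802) were not called.

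Spp1 and Lgals3 encode secreted proteins that bind integrins and sugars respectively, osteopontin and galectin-3. Spp1 (identifier 20750, chromosome 5, 104435111 to 104441053, plus strand) ranged from 3.92 to 10.4 CPM in young (median 5.31), 5.43 to 24.9 in old early-induced (median 12.9) and 7.70 to 29.2 in old late-induced inputs (median 17.8). Its ranges overlapped, with 7 of 12 and 6 of 7 old libraries above every young one. Spp1 rose by 1.14 ± 0.24 (SE, edgeR adjusted p 0.000809) and 1.50 ± 0.27 (SE, edgeR adjusted p 9.57e-05) on the log2 scale. Lgals3 (identifier 16854, chromosome 14, 47373860 to 47386167, plus strand) ranged from 0.724 to 2.41 CPM in young (median 1.43), 1.82 to 6.27 in old early-induced (median 3.53) and 2.73 to 7.48 in old late-induced inputs (median 4.96). Only the late-induced inputs were clear of the young range. Its log2 fold changes were 1.34 ± 0.23 (SE, edgeR adjusted p 8.45e-05) and 1.74 ± 0.26 (SE, edgeR adjusted p 6.66e-06).

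Groups without overlap were counted against all genes tested. For Itgax and Cst7 the nearest old and young libraries stood only a few counts apart, as given above. Every old early-induced input was above every young one for 4 of the 8 genes, where 0.95% of all genes showed this, and every old late-induced input for 5 of 8, where 2.74% did. Per kilobase of exon (GENCODE M21), the order of mean levels in young inputs was Lyz2 (5.71 ± 0.723 CPM per kb), Lpl (4.53 ± 0.356) and Spp1 (3.66 ± 1.41), then Lgals3 (0.770 ± 0.335) and Gpnmb (0.728 ± 0.228), then Cst7 (0.114 ± 0.136), Clec7a (0.0572 ± 0.0578) and Itgax (0.0361 ± 0.0300; SD, n = 10 each). Lpl and Spp1, and the neighbours within each of the last 2 sets, differed by less than the larger SD. In old late-induced inputs Lyz2 stood at 33.3 ± 17.9 CPM per kb (SD, n = 7), Spp1 at 10.9 ± 5.12, Lpl at 4.45 ± 1.17 and Cst7 at 3.88 ± 3.25. On this scale Spp1 stood above Lpl, and Cst7 lay within the SD of Lpl. By mean CPM Lpl (46.6) stayed above Spp1 (17.9) there. The length used counts every annotated exon of a gene, 10478 bases for Lpl, 1648 for Spp1 and 1316 for Lyz2. The order between genes depends on this length.

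**Figure D2:**
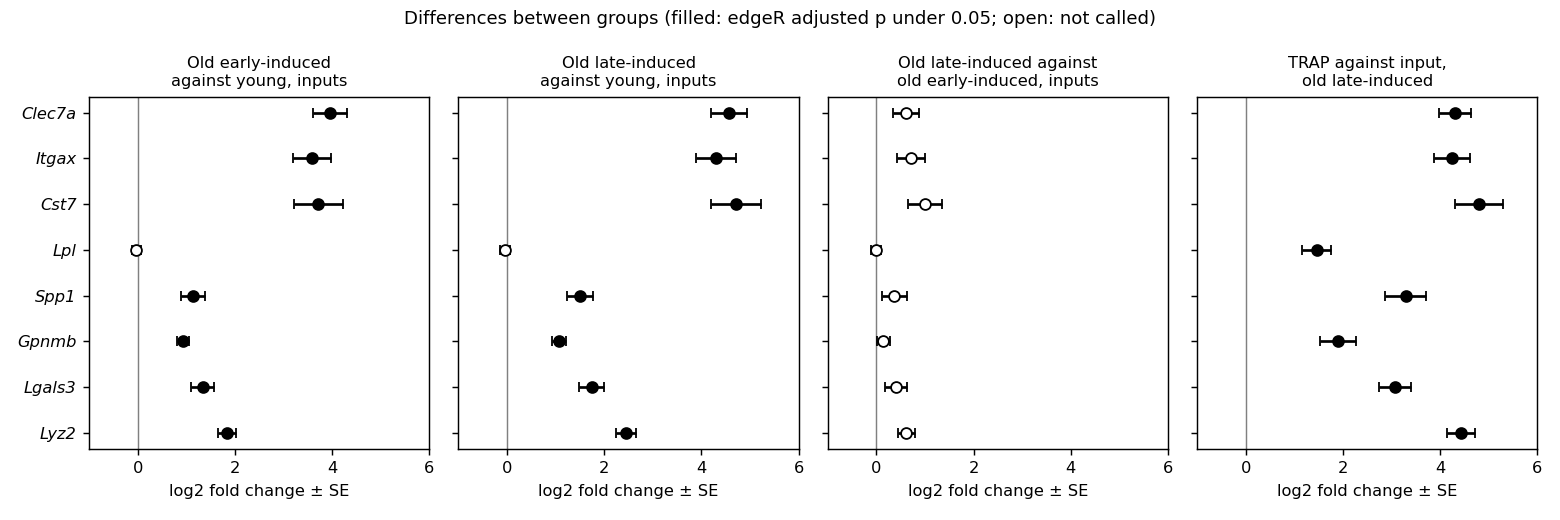
Log2 fold change with its SE for each gene in 4 comparisons, on a common axis. Filled points have an edgeR adjusted p under 0.05. In both age comparisons 7 of 8 genes are filled and Lpl sits at 0, none is filled for induction age, and all 8 are filled in TRAP against input.

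Other genes of the disease-associated signature were also counted. Of 31 further members that passed the filter, 25 were called higher and 0 lower in each old group, with median log2 fold changes of 0.33 in early-induced and 0.55 in late-induced mice. The largest were the chemokine gene Ccl3 (1.95), the surface glycoprotein gene Cd52 (1.58) and the inhibitory receptor gene Lilrb4 (1.50) in early-induced mice, and Lilrb4 (2.35), the oxidase subunit gene Cybb (2.19) and Ccl3 (2.17) in late-induced mice. The smallest were Ch25h (-0.37), Igf1 (-0.04) and Timp2 (0.07) in early-induced and Ch25h (-0.39), Igf1 (-0.23) and Hif1a (0.03) in late-induced mice, and none of these was called. Of the 16 homeostatic genes, 12 were higher and 1 lower in early-induced, and 14 higher and 1 lower in late-induced mice, with medians of 0.27 and 0.37. Gpr34 (0.63 and 0.71) and Cx3cr1 (0.47 and 0.68) led this list in both groups. Mertk was the gene called lower (-0.33 and -0.28), and Crybb1 (-0.02 and -0.06) was not called. The next smallest were Fcrls in early-induced (0.09, not called) and P2ry12 in late-induced mice (0.23, called higher).

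The pan-myeloid list was called higher in 10 of 10 genes in both old groups, with medians of 0.59 and 0.91, larger than those of the homeostatic list. Markers of other cells also moved with age. Of 10 oligodendrocyte genes, 8 and 9 were called higher in the early-induced and late-induced old groups (medians 0.34 and 0.49), as were 2 and 4 of 4 blood genes (0.93 and 1.47) and 3 of 7 astrocyte genes in each. Border macrophage genes were called in 0 of 9 cases in early-induced mice, and 1 higher and 1 lower in late-induced mice. Their summed level was 29.6 to 42.2 CPM in young, 27.3 to 44.1 in old early-induced and 24 to 55 in old late-induced inputs. The 10 monocyte and neutrophil genes summed to at most 4.04 CPM in young and 5.77 in old late-induced inputs. In old early-induced inputs they reached 23.6 CPM in replicate 5, which also had the highest summed blood level, 2282 CPM. Without this library the same 7 genes stayed called in early-induced mice, with log2 fold changes of 3.93 for Clec7a, 3.46 for Itgax, 3.68 for Cst7 and 1.73 for Lyz2. The part of the other markers in the rise of the 7 genes was not tested.

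Levels were also taken relative to the homeostatic list, whose mean log2 CPM averaged 4.40 over young, 4.66 over early-induced and 4.78 over late-induced old inputs. The 7 genes rose by more than this mean, and Lpl, itself level, did not rise with it. For each input the mean log2 CPM of the 16 homeostatic genes was subtracted from the log2 CPM of a member. Clec7a stood at -6.46 ± 0.76 (young, SD, n = 10), -3.32 ± 0.55 (early-induced, SD, n = 12) and -2.82 ± 0.88 (late-induced, SD, n = 7). Lyz2 went from -1.48 ± 0.18 to 0.09 ± 0.27 and 0.51 ± 0.65. The differences from young were 2.79 and 3.40 for Itgax, 2.66 and 3.34 for Cst7, 1.05 and 1.36 for Lgals3, 0.84 and 1.12 for Spp1, and 0.72 and 0.80 for Gpnmb. Lpl went from 1.16 ± 0.16 to 0.87 ± 0.14 and 0.72 ± 0.36, differences of -0.29 and -0.44. A gene with no change would also show negative differences here, since the subtracted mean rose. All 16 comparisons had an adjusted p of at most 0.0035 (two-sided permutation tests, exact for the late-induced group). In females alone Spp1 in early-induced (difference 0.60) and Lpl in late-induced mice (-0.38) no longer passed.

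Induction age made no called difference among the 8 genes in old inputs. Fitted changes were positive for 7 genes and -0.01 for Lpl. No member was free of overlap (0 of 8, and 0.00669% of all genes), and 0 of 8 were called by edgeR, DESeq2 or limma voom, where edgeR called 0.0268% of all genes higher. At an unadjusted p under 0.05 edgeR gave 11.6% of all genes and 4 of 8 members, Lyz2 (log2 fold change 0.62 ± 0.18 SE, edgeR adjusted p 0.185), Cst7 (1.00 ± 0.36, adjusted p 0.268), Itgax (0.71 ± 0.29, adjusted p 0.332) and Clec7a (0.61 ± 0.26, adjusted p 0.350). The unadjusted 95% interval ran from 0.11 to 1.12 for Clec7a and from 0.30 to 1.69 for Cst7. Lyz2 was called without old early-induced replicate 5 (0.68, edgeR adjusted p 0.0412) and in females alone (0.89, edgeR adjusted p 0.0192), and its adjusted p ranged from 0.0192 to 0.388 over all settings.

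In the 7 old late-induced mice all 8 genes were higher in TRAP than in input, where edgeR called 30.4% of 14596 genes higher. In TRAP, Lyz2 had 464, 397, 1366, 1122, 2032, 843 and 592 CPM in replicates 1 to 7, of which 1 and 2 are males. Clec7a had 36.3, 22.1, 171, 107, 186, 81.1 and 42.8 CPM, and Itgax 22.6, 18.7, 213, 99.8, 146, 72.7 and 44.0 CPM. The lowest of these TRAP libraries lay above the highest input for each of the 3 genes. Cst7 had 25.8, 27.4, 243, 114, 241, 91.6 and 31.4 CPM, also clear of its inputs. Log2 fold changes were 4.80 ± 0.49 for Cst7 (SE, edgeR adjusted p 2.55e-07), 4.42 ± 0.29 for Lyz2 (7.90e-10), 4.31 ± 0.34 for Clec7a (8.65e-09) and 4.24 ± 0.37 for Itgax (3.58e-08).

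Spp1, Lgals3, Gpnmb and Lpl were less enriched. Spp1 had 37.1, 34.4, 497, 245, 444, 159 and 68.4 CPM in TRAP replicates 1 to 7, and Lgals3 16.3, 9.70, 91.6, 59.8, 78.5, 44.9 and 23.7 CPM. For both, the lowest TRAP library was above the highest input. Gpnmb ranged from 7.29 to 115 CPM and Lpl from 57.2 to 264 CPM, and these 2 overlapped their inputs, with 5 of 7 TRAP libraries above every input. Groups did not overlap for 6 of the 8 genes, where 19.9% of all genes showed this. Spp1 was higher by 3.30 ± 0.42 on the log2 scale (SE, edgeR adjusted p 4.16e-06), Lgals3 by 3.07 ± 0.33 (4.68e-07), Gpnmb by 1.90 ± 0.37 (0.000313) and Lpl by 1.46 ± 0.30 (0.000451). With upper quartile scaling the median over all genes moved from -0.02 to -0.16 (log2), and all 8 genes stayed called higher. Of the 32 other disease-associated genes, 25 were called higher and 3 lower in TRAP, with a median of 2.10.

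Enrichment was then set against that of the homeostatic genes in the same animal. The homeostatic list was higher in TRAP by 4.00 ± 0.16 on the log2 scale (SD, n = 7). Lyz2 exceeded it in 7 of 7 animals by 0.42 ± 0.11 (SD; exact sign-flip p 0.0156, the smallest that 7 animals can give, adjusted p 0.025 over the 8 genes), and Cst7 in 6 of 7 animals by 0.81 ± 0.51 (exact adjusted p 0.0417). Clec7a (0.20 ± 0.43, exact adjusted p 0.234) and Itgax (0.15 ± 0.27, exact adjusted p 0.232) did not differ beyond their spread, and both were below 0 when the median over the list was used. Spp1 (-0.96 ± 0.89), Lgals3 (-1.10 ± 0.77), Gpnmb (-2.40 ± 0.98) and Lpl (-2.63 ± 0.66) were below the list in 7 of 7 animals. Each had an exact adjusted p of 0.025. The size differed between animals. Spp1 stood at -0.15, -0.23 and -0.17 in replicates 3, 4 and 5 and -0.64 in replicate 6. In replicates 1, 2 and 7 it stood at -1.58, -2.40 and -1.54. Gpnmb and Lpl were also farthest below in replicates 1, 2 and 7, and Lgals3 in replicates 1 and 2, the males.

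**Figure D3:**
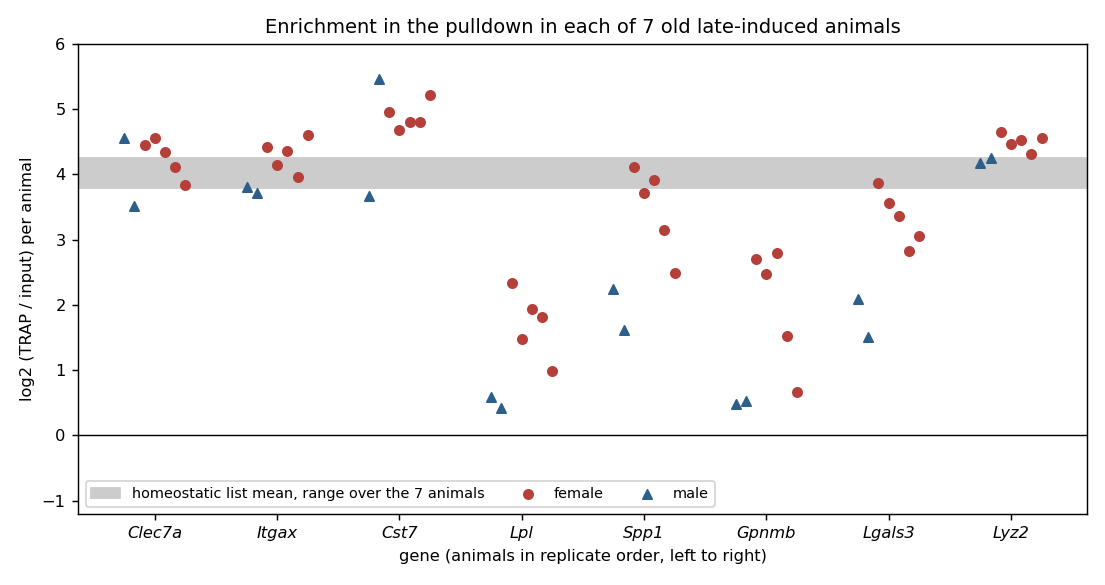
Log2 ratio of TRAP to input for each gene in each of the 7 old late-induced animals, with females as red circles and males as blue triangles. The grey band is the range of the homeostatic list mean over the animals. Lyz2 exceeds the homeostatic mean of its own animal in all 7, Clec7a and Itgax lie around it, and Lpl and Gpnmb lie below it.

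TRAP levels of these genes differed between animals. The SD of log2 CPM over the 7 TRAP libraries was 0.86 for Lyz2, 0.93 for Lpl, 1.17 for Clec7a, 1.22 for Lgals3, 1.32 for Itgax, 1.42 for Cst7, 1.55 for Gpnmb and 1.61 for Spp1, while that of single genes was 0.12 to 0.38 over the 16 homeostatic genes (median 0.23), 0.27 to 0.54 over the 10 pan-myeloid genes and 0.08 to 1.24 over the 32 other disease-associated genes (median 0.54). The highest TRAP library exceeded the lowest by 4.62-fold for Lpl, 8.42-fold for Clec7a, 11.4-fold for Itgax and 15.7-fold for Gpnmb. The order of the animals was nearly the same for each gene. Replicates 3 and 5 were the highest 2 for 8 of 8 genes, and replicates 1 and 2, the males, were the lowest 2 for 8 of 8, with replicate 7 next. The summed homeostatic level was also highest in replicates 3 (14163 CPM) and 5 (13320 CPM) and lowest in replicate 1 (9755 CPM). Summed pan-myeloid levels followed the order of the members, from 4579 CPM in replicate 3 and 4268 in replicate 5 to 2711 in replicate 1 and 2519 in replicate 2. Summed oligodendrocyte levels were also highest in replicates 5 (3371 CPM) and 3 (3165 CPM), and neuronal ones lowest there (5059 and 5131 CPM, against 5744 to 6618 in the others). Summed border macrophage levels were highest in replicates 6 (664.8 CPM) and 7 (653 CPM) and lowest in replicate 1 (395 CPM). The part of these cells in the order of the animals was not tested.

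Animals with high levels in tissue were those with high levels in TRAP. Across the 7 animals, Pearson's r of TRAP with input log2 CPM was 0.985 for Lyz2 (Spearman's rho 0.964), 0.974 for Itgax (rho 1), 0.965 for Spp1 (rho 0.929), 0.949 for Clec7a (rho 0.929), 0.924 for Cst7 (rho 0.857) and 0.918 for Gpnmb (rho 0.964). Exact permutation p-values for these 6 genes, adjusted over the 22 correlations computed, were 0.00582 to 0.0155 for r and 0.00873 to 0.0403 for rho. Lgals3 (r 0.827, exact adjusted p 0.054, rho 0.714, exact adjusted p 0.121) and Lpl (r 0.695, exact adjusted p 0.117, rho 0.571, exact adjusted p 0.259) did not pass. Without the 2 animals farthest from the median input, r was 0.771 to 0.974 over the 8 genes. With the means of each sex removed, r was 0.737 to 0.981, and only Lyz2 and Itgax passed.

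**Figure D4:**
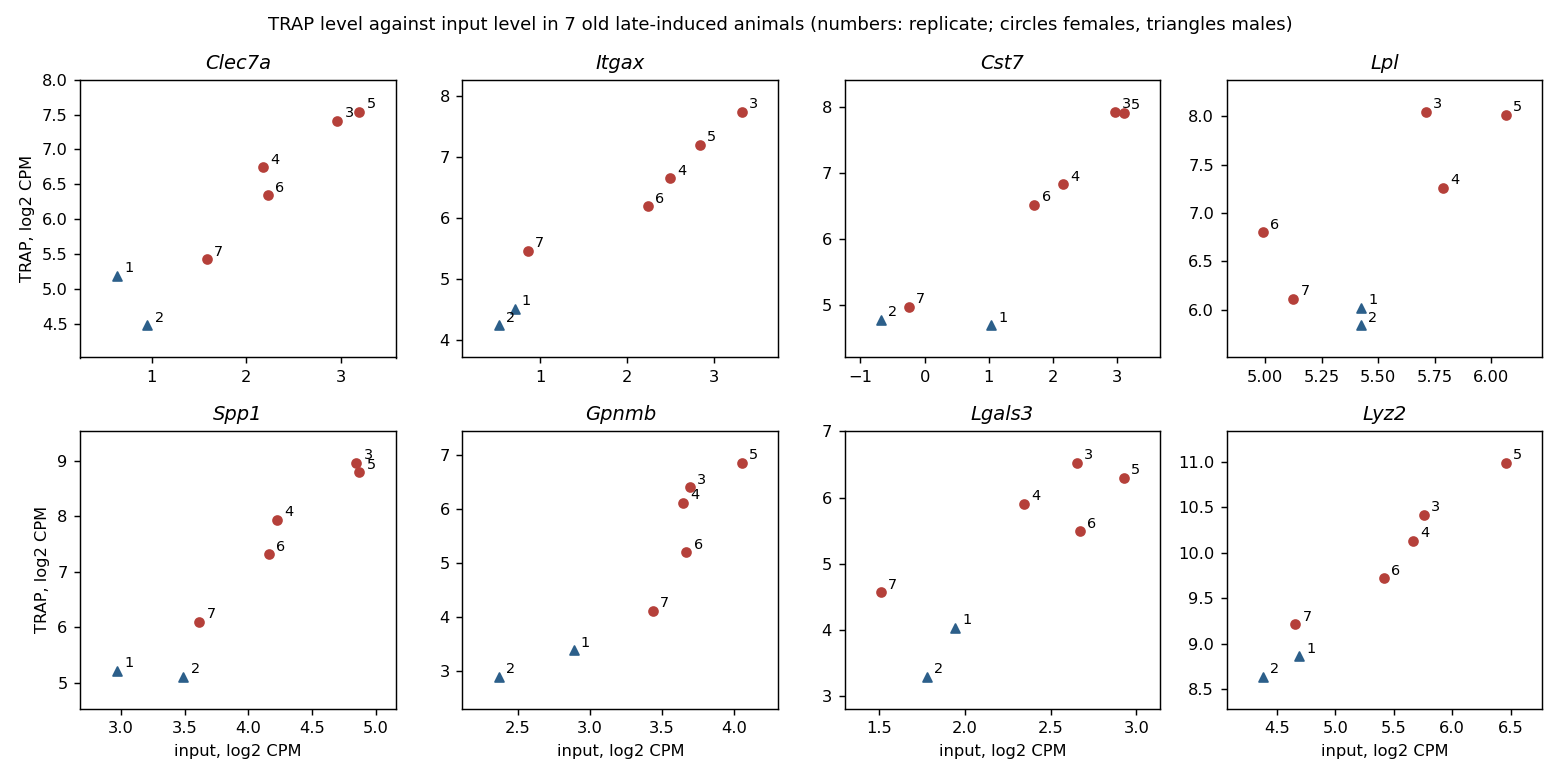
Log2 CPM in TRAP against log2 CPM in input of the same animal, 1 panel for each gene, with replicate numbers beside the points, females as red circles and males as blue triangles. Replicates 3 and 5 lie at the top of each panel and the males at the bottom, and Lpl has the widest scatter.

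The members were next compared with Clec7a across inputs, within each old group. A difference between the groups was not tested. Against Clec7a over the 7 late-induced inputs, r was 0.986 for Spp1 (rho 0.964), 0.938 for Itgax (rho 0.893), 0.924 for Lyz2 (rho 0.857), 0.884 for Gpnmb (rho 0.964), 0.832 for Cst7 (rho 0.857) and 0.832 for Lgals3 (rho 0.821), with exact permutation p-values adjusted over the same 22 of 0.00582 to 0.0425 for r. The rho of Lgals3 missed the threshold (exact adjusted p 0.0501). Lpl did not pass (r 0.528, rho 0.429, exact adjusted p 0.275). Over the 12 early-induced inputs, Itgax (r 0.747, rho 0.650, permutation adjusted p 0.0189), Cst7 (r 0.742, rho 0.727, 0.0156) and Gpnmb (r 0.695, rho 0.776, 0.0263) passed. Without the 2 libraries farthest from the median of Clec7a, these were 0.587, 0.604 and 0.832. With sex means removed, 0 of 7 passed by r in early-induced mice (r 0.154, 0.452 and 0.221 for these 3), and 1 of 7 in late-induced mice, Spp1 (r 0.977). The rho of Spp1 there was 0.857 (exact permutation adjusted p 0.138), and by rho 0 of 7 passed in each old group. In the 7 early-induced females alone 0 of 7 passed, with r of -0.304 for Itgax (rho -0.143), 0.316 for Cst7 (rho 0.357) and 0.643 for Gpnmb (rho 0.750). Within sex no relation passed in early-induced mice, at fewer animals in the females, and the r of Gpnmb in females was close to that over the 12 inputs.

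Levels were lower in males for part of the set. In inputs, edgeR called Gpnmb (log2 fold change -0.64 ± 0.11 SE, adjusted p 0.00246) and Itgax (-1.39 ± 0.30, adjusted p 0.0429) lower, 2 of 8 genes where 0.127% of all genes were called lower in males. Clec7a (-1.17 ± 0.27, edgeR adjusted p 0.0593) and Cst7 (-1.40 ± 0.37, edgeR adjusted p 0.146) did not pass. In old early-induced inputs Clec7a ranged from 2.66 to 4.18 CPM in 7 females and from 1.05 to 2.09 CPM in 5 males, the only member of 8 without overlap there, where 0.348% of all genes showed none. In old late-induced inputs 4 of 8 separated (Clec7a, Itgax, Spp1 and Gpnmb), where 5.59% of all genes did. In young inputs 0 of 8 members separated the sexes, against 0.763% of all genes. The call for Itgax was lost in limma voom (-1.48, adjusted p 0.0501), in early-induced groups alone (-1.13, edgeR adjusted p 0.358) and without any 1 of old late-induced replicates 1 to 6, among other single libraries. Gpnmb lost its call in early-induced groups alone (-0.52, edgeR adjusted p 0.0998). Other lists also moved with sex in inputs. In males the 3 monocyte and neutrophil genes tested had a median of 1.02, with S100a9 called higher (1.59, edgeR adjusted p 0.0115), and the blood (4 of 4 positive, median 0.78) and choroid plexus genes (5 of 5 positive, median 0.95) were not called. Old early-induced replicate 5, which reached 23.6 CPM for the monocyte and neutrophil list and 2282 CPM for blood, is a male. The pan-myeloid list had a median of -0.11 and the homeostatic list -0.06, with 0 genes called in each. The part of these cells in the sex differences was not tested.

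The interaction of age and sex was called for 0 of 8 genes by edgeR, DESeq2 and limma voom and reached an unadjusted p under 0.05 for 0 of 8 in edgeR, which called 0.0% of 14953 genes.

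In TRAP each of the 5 females lay above both males for 8 of 8 genes, where 12.4% of all genes showed this. Spp1 was 283 ± 184 CPM in females (SD, n = 5) and 34.4 and 37.1 CPM in the 2 males, and Gpnmb 64.3 ± 38.6 CPM and 7.29 and 10.3 CPM. A fit of the 7 TRAP libraries, added after these values were seen, gave log2 fold changes of -1.43 (Lyz2) to -2.94 (Spp1) for males against females. Of the 8 genes 0 were called by edgeR (adjusted p 0.171 to 0.245) and by limma voom, where edgeR called 0.0203% of 14763 genes lower in males. At an unadjusted p under 0.05 edgeR gave 8 of 8 members and 13.5% of all genes. DESeq2 called 5 members and 1.99% of all genes lower. Without female replicate 7, edgeR called 8 members (adjusted p 0.0106 to 0.0373) and 1.35% of all genes lower. Over the 32 other disease-associated genes the median was -0.81, with 1 positive, and over the 10 pan-myeloid genes -0.50, with 0 positive. Over the homeostatic list it was -0.19, over the border macrophage list -0.69 and over the choroid plexus list 1.66. In each of these lists 0 genes were called. With 2 males, sex and animal cannot be told apart here.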

How the data were processed

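Per the labels, polyA RNA of hippocampal inputs and TRAP pulldowns was sequenced. The authors deposited estimated counts per gene for 36 libraries, of which 77.4% of the nonzero values are not whole numbers. The submitters' processing notes name mm10 and DESeq2, and the aligner and counter are not given in the sources used here. Estimated counts were rounded. Totals of 12.9 to 20.4 M limit the precision of genes near the floor, and intervals cover counting error only.

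Groups came from the labels. Genes passed filterByExpr with a minimum count of 10, and edgeR 4.0.16 (R 4.3.3) quasi-likelihood tests were fitted over all genes, with TMM scaling and sex as a covariate. SEs were derived from the F statistic. CPM used TMM over the 36 libraries, and log2 CPM a prior count of 2. Single values were tested by permutation (scipy 1.17.1, exact or 100000 resamples). Alternatives included DESeq2 1.42.0, limma 3.58.1 voom, other scalings, no filter and leaving out each library. The scripts were tested on simulated data.

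The members and lists were chosen with earlier results of these data known. The text names all 8 members, the 3 largest and 3 smallest genes of the other disease-associated and homeostatic lists in each age comparison, the 3 nearest genes to each member over 19 old inputs, and up to 4 promoters of members called in both age comparisons, largest fold first. Some genes that this rule names are not reported here. S100a9, Ccr2 and Ly6c2 were named after their values were seen. The male-against-female fit of TRAP and the correlations in females alone were chosen after seeing the data. Lilrb4a was matched as Lilrb4, Spi1 as Sfpi1 and Hbb-bs as Beta-s, by identifier. TRAP and input share an animal number in the labels, and same-numbered libraries deviated together (r 0.308 to 0.470 in 7 pairs, median 0.364, against a median of -0.086 for other pairs).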

Additional observations from a re-analysis of the deposited data

How the results depend on the processing

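With the animal as replicate block in place of sex, 8 members were called higher in TRAP (all genes 4650 higher and 4680 lower), and the block changed no call of a member. Age calls of the 7 members kept their direction and side of the threshold in the settings run, and 8 of 8 stayed called in TRAP. The log2 fold change of Lpl, never called, changed sign. It was 0.0640 against young in early-induced and 0.0683 in late-induced females alone, and -0.142 to 0.0318 in late-induced mice when single libraries were left out. For late against early induction it was 0.0015 with library size alone and with upper quartile scaling, 0.00089 with no sex covariate, 0.0042 in females alone and -0.105 to 0.0676 with single libraries left out. Members called higher for late induction numbered 1 in females alone (all genes 52 of 14862). They numbered 0 to 1 without single libraries (all genes 0 to 67), 1 without old early-induced replicate 5 (67 of 14933). Members called lower in male inputs numbered 4 with DESeq2 (all genes 42 of 14948) and 0 in early-induced groups alone (7 of 14547). They numbered 1 to 4 without single libraries (all genes 10 to 24), 4 without old late-induced replicate 7 (24 of 14995). In male TRAP libraries they numbered 5 with DESeq2 (all genes 294 of 14763). Without single libraries the range there was 0 to 8 (all genes 0 to 198). The interaction for Clec7a was 0.10 with limma voom and -1.14 to 0.59 without single libraries, and for Itgax -0.99 to 0.10. Enrichment against the list median was -0.0214 for Clec7a and -0.0744 for Itgax. By r, correlations with Clec7a passed 9 times, 1 with sex means removed and 0 in females alone, and those of TRAP with input 6 times and 2. In early-induced mice r was -0.217 for Lpl, 0.0326 for Spp1 and 0.0686 for Lgals3 with sex means removed, and -0.304 for Itgax, -0.430 for Lpl and 0.255 for Lgals3 in females alone. The cause of these changes was not tested.

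Over all genes, females alone gave 638 higher and 560 lower in early-induced and 1396 and 1391 in late-induced mice. Upper quartile scaling gave 2351 and 1610, 3015 and 2302, and in TRAP 3280 and 6372. DESeq2 gave 30 and 28 for late induction, 22 and 42 for male inputs, 4 and 9 for the interaction and 70 and 294 for male TRAP libraries. Depth limits Clec7a, Itgax and Cst7 in young inputs, where 3, 3 and 5 of 10 libraries held no count.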

Other observations

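Among the 19 old inputs, with group and sex means removed, the non-member genes whose log2 CPM was most like that of each member were listed by Pearson's r, as a description over 14129 genes that share libraries and depth. For Clec7a they were Ndp (0.86), Grn (0.84) and Mpeg1 (0.83), the last 2 a lysosomal growth factor gene and a macrophage pore-forming protein gene. For Itgax they were Laptm5 (0.87), S1pr3 (0.86) and Ehd2 (0.84), for Cst7 Serpina3n (0.81), Lhx6 (0.79) and Cd68 (0.79), and for Lgals3 Cd9 (0.90), Cnn3 (0.89) and Rps10 (0.87). Lyz2 was nearest to the complement gene C1qa (0.92), Vim (0.88) and Rarres2 (0.87). Spp1 was nearest to Gjb6 (0.85), Tmem37 (0.85) and H2-Eb1 (0.85), and Gpnmb to Mecr (0.82), Neat1 (0.80) and Rcsd1 (0.77).

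The genes nearest to Lpl included Tprgl (0.92), which encodes a protein of presynaptic terminals, and Rhob (0.89). Between members, Lyz2 was the 6th nearest of 14128 genes to Gpnmb (r 0.76) and the 29th to Clec7a (r 0.71), and Cst7 the 44th to Clec7a (r 0.69). Itgax and Gpnmb were far apart by this measure (r 0.19).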
